A study of Mus musculus with 4 samples.

Results

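Trp53 encodes p53, a transcription factor that is stabilised by DNA damage and other stress. It drives genes for cell cycle arrest, repair and apoptosis, and among them Mdm2, whose product marks p53 for degradation and so closes a feedback loop. Loss of p53 is a common step in lung adenocarcinoma and is part of the KP mouse model. The gene set described here is Trp53 and 9 of its classical targets (Cdkn1a, Mdm2, Ccng1, Bbc3, Bax, Sesn2, Trp53inp1, Zmat3 and Perp), 10 genes in all. Their members are the 39 ATAC-seq peaks, of 80881 in the deposited table, that the authors assigned to these symbols.

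The cells were a line from a KP mouse lung tumour, called KPC cells in the labels. All of them carried SpCas9 from a lentivirus with puromycin selection, together with a lentiviral activation vector (lenti-SAM-Hygro), in which a guide, called dRNA in the labels, brings an activator to a chosen site. The guide addressed Malat1, a nuclear long noncoding RNA, in the group mA2 dRNA, and luciferase, a sequence foreign to the mouse, in the control group Con dRNA. Each group had 2 libraries, 4 in all, from biological replicate cell samples, and the comparison asks whether Malat1 activation alters chromatin accessibility. The labels give neither the line's Trp53 allele nor whether the line is a clone.

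Read values are group means of normalized reads as the authors' deposited table gives them, with positions in mm10. Its columns for single libraries bear no sample's name and stayed unused, so no spread between libraries stands beside a mean. Whether a difference exceeded the replicate error therefore rests on the authors' adjusted p alone, and a peak counts as called where that p was under 0.05. Differences are on the log2 scale, mA2 dRNA minus Con dRNA, and folds are ratios of the group means. The authors' deposited table also holds a log2 fold of its own, which was nearer to 0 than the difference of the means at all 39 member peaks. It ran from -0.20 to 0.33 where the differences ran from -0.98 to 1.37. The folds given below for member peaks, strong and weak, are therefore larger in size than the authors' own. Distances are the authors', from the start site they assigned, which need not be the RefSeq bound given for the gene. The sum of mean reads over all peaks was 1.07 times as high under the Malat1 guide, and the median peak held 73.1 reads over both groups. The peak over the Malat1 start site held 322 reads under the Malat1 guide and 290 under the luciferase guide (authors' deposited table, adjusted p = 0.978), which checks no label because the assay does not measure Malat1 RNA. Of the marker genes of the labelled tissue, 3 of 4 epithelial genes (Cdh1, Krt8 and Krt18, not Epcam) and all 4 of the lung epithelial genes (Nkx2-1, Sftpc, Sftpb and Foxa2) had a peak within 3 kb of the start site, though those of Sftpc and Sftpb were weak, with at most 37.5 reads in either group. Neither endothelial marker had such a peak, 1 of 2 leukocyte markers did (Laptm5, not Ptprc), and both fibroblast markers did, and 0 of these marker peaks were called. Nkx2-1 held at most 87.2 reads in either group and Laptm5 at most 99.9, against a median of 208 over all peaks within 3 kb. The highest levels among these markers were at Krt8, with at most 584 reads in either group, and at the fibroblast gene Col1a1, with at most 555. Cdh1 held at most 130 and Krt18 at most 143. Of all these markers only Cdh1, Krt18 and the fibroblast gene Pdgfrb had a peak directly over the start site.

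Promoter sequence was available from RefSeq (GRCm38.p6, the assembly that mm10 names) for 7 of the 10 genes, in 10 windows that run from 250 bases before to 50 bases after a transcription start. These windows were searched for the p53 half-site consensus, which has 3 purines, C, a pair of A or T bases, G and 3 pyrimidines, and which reads the same on both strands. A match occurred in 5 of the 10 windows, at 5 of the 7 genes, against 8.36% of all 32851 windows and 9.55% of the 27025 genes with one. A pair of half-sites with at most 13 bases between them, the form of a complete p53 element, was present in 24 of all windows (0.0731%), and Cdkn1a held one of these. A match is a run of letters and not shown to be bound. Only exact matches were counted, so an element that departs from the consensus in any base is missed, also in windows without a match. The windows with a match are printed below 5′ to 3′ on the strand of the gene, with the half-site in capitals. The first Bbc3 window, which has no exact match, is also printed because the leading Bbc3 peak covers it.
Trp53, chr11:69580109-69580408, plus strand: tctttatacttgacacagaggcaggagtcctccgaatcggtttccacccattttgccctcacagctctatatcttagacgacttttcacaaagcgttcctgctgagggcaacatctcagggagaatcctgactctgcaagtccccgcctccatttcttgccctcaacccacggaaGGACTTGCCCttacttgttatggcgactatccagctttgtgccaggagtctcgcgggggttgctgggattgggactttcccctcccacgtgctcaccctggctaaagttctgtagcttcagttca
Cdkn1a, chr17:29090729-29091028, plus strand: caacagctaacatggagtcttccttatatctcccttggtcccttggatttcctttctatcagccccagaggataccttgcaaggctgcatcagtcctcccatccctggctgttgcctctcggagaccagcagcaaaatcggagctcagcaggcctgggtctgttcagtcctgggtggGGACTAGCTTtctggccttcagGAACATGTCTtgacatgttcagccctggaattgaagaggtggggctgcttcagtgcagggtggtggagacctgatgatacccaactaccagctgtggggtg
Mdm2, chr10:117710709-117711008, minus strand: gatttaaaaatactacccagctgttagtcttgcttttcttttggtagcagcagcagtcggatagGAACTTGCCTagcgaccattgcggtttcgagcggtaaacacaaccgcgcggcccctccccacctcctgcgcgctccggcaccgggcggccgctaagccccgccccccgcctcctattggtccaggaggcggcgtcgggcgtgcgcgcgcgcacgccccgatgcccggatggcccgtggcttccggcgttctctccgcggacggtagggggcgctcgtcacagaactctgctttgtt
Ccng1, chr11:40755237-40755536, minus strand: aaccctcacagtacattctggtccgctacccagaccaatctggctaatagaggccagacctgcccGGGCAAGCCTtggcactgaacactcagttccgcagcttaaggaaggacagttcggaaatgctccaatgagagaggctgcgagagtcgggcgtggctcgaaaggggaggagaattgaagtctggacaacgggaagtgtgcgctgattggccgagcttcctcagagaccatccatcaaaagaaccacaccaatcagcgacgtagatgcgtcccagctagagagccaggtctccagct
Bax, chr7:45466849-45467148, minus strand: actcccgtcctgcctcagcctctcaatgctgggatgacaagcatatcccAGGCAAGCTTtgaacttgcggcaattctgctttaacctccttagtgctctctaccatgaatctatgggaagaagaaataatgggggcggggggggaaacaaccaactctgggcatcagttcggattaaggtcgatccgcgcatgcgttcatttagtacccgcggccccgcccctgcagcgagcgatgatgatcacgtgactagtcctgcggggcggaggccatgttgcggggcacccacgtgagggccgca
Bbc3, chr7:16309333-16309632, plus strand: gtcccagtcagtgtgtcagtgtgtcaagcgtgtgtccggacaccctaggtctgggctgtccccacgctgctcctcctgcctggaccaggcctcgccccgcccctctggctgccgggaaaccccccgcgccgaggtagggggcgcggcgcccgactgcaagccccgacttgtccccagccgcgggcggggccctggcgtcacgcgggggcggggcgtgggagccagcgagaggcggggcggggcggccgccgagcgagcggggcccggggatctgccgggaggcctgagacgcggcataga

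Elements upstream of Cdkn1a are the classical example of p53 binding to DNA. The printed Cdkn1a window holds exact half-site matches at bases 178 to 187 and 200 to 209, 12 bases apart. The second of them begins 2.84 kb upstream of the other RefSeq start of the gene. The run directly after base 209, tgacatgttc, departs from the consensus only in its first base and is therefore not in capitals. Which of these half-sites form an element that p53 binds was not tested. No peak of the table overlapped either Cdkn1a window. The matches of Trp53, Ccng1 and Bax lie in windows that a peak overlapped by 269, 299 and 211 bases, while the Mdm2 window was overlapped by none. All 300 bases of the printed Bbc3 window lay inside a peak. The 10 windows had a median GC content of 64.7% and 23 CpG dinucleotides, against 52.7% and 7 over all windows.

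None of the 39 peaks was called. The share called over all peaks was 2.73%, in either direction, and 1.57% of the 18006 peaks within 3 kb of a start site, so a count of 0 among 39 lies near the background and is not a result about these genes. The smallest adjusted p among them was 0.262 in the authors' deposited table. At an unadjusted p under 0.05, 4 of the 39 (10.3%) stood out, 3 higher and 1 lower, against 11.7% of all peaks. The mean was higher under the Malat1 guide in 26 of the 39 peaks (66.7%) and in 60.8% of all peaks. Their median difference was 0.09 on the log2 scale, the same to 2 decimals as that of all peaks, with a range from -0.98 to 1.37. In 35 of the 39 (89.7%) the difference was under 0.5 in size, as it was in 73.5% of all peaks and in 87.7% of all peaks within 3 kb. The median read level was 162 for the members, 73.1 for all peaks and 208 for all peaks within 3 kb.

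**Figure D1:**
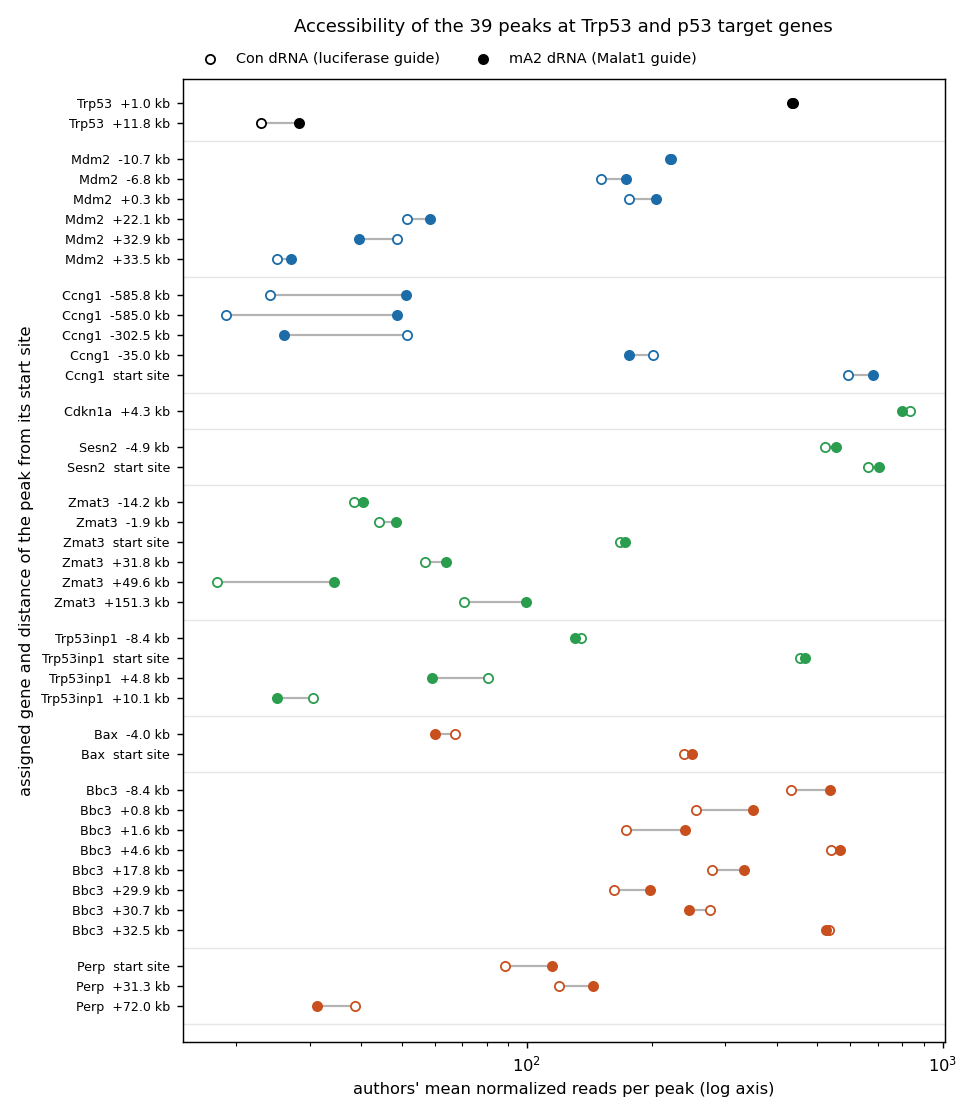
Each line is a peak assigned to Trp53 or to a p53 target gene, labelled with its distance from the start site. Open circles are the authors' mean normalized reads under the luciferase guide and filled circles those under the Malat1 guide, on a log axis, coloured by role (black Trp53, blue Mdm2 and Ccng1, green arrest and stress targets, orange death genes). The circles lie close together at strong peaks such as Cdkn1a (799 and 835 reads) and furthest apart at weak peaks such as those 585 kb and 586 kb from Ccng1.

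What could be called depended on the read level. Among peaks with a mean of 512 to 1024 reads the smallest called difference was 0.35 in size, and the largest among the 6 member peaks there was 0.20. The band from 256 to 512 reads had 0.55 as its smallest called difference and 0.45 as the largest of 6 member peaks. From 128 to 256 reads these values were 0.75 and 0.47 over 10 member peaks, and from 64 to 128 reads they were 0.99 and 0.49 over 3. In the band from 32 to 64 reads a called difference was at least 1.29, and a single member peak, at Ccng1, passed that size with 1.37 and was not called. At these levels no difference of a smaller size was called anywhere in the table.

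**Figure D2:**
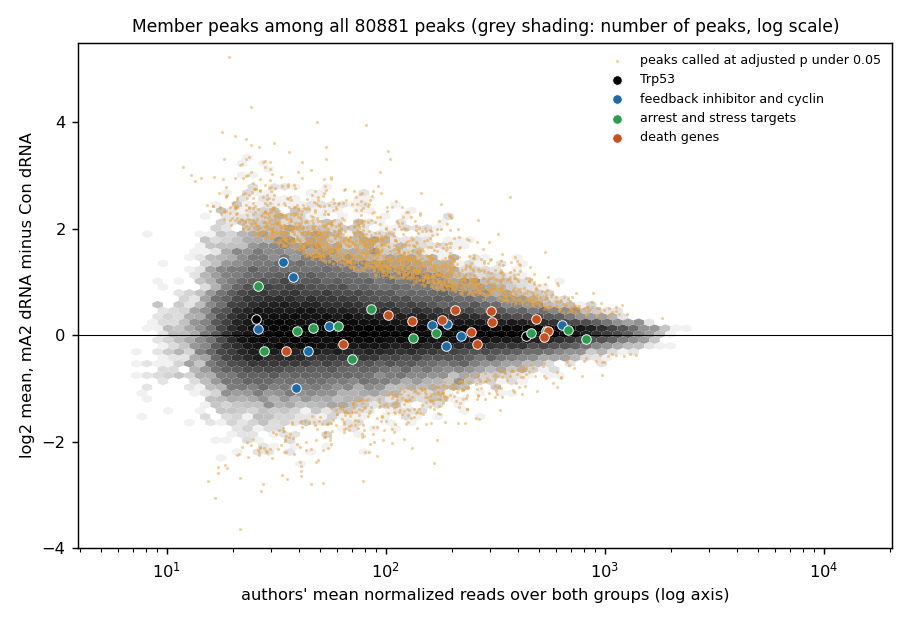
The x axis is the authors' mean normalized reads over both groups on a log axis and the y axis the log2 difference between groups. Grey shading counts all 80881 peaks, yellow dots are called peaks and large dots are the 39 member peaks. None of the member peaks is among the called ones, and above 100 reads their differences lie between -0.19 and 0.47.

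Neither of the peaks assigned to Trp53 itself was called. The gene (gene ID 22059) runs on the plus strand of chromosome 11 from 69580348 to 69591873. The stronger of its 2 assigned peaks, from 69581321 to 69581721, lies inside the gene, 0.963 kb from the start site used by the authors, and held 434 reads under the Malat1 guide and 436 under the luciferase guide. The authors' deposited table gave an adjusted p of 0.999. The level of this peak exceeded that of 74.5% of the peaks within 3 kb of a start site. The weaker peak begins 332 bp past the end of the gene and held 28.3 and 22.9 reads (authors' deposited table, adjusted p = 0.970).

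The Trp53 start site carried a further peak, which the authors assigned to Wrap53, the neighbouring gene for a telomerase Cajal body protein whose start lies against that of Trp53. It spans 69580140 to 69580540, covers 269 bases of the Trp53 promoter window printed above, and held 399 and 376 reads (authors' deposited table, adjusted p = 0.983). A second Wrap53 peak nearby held 908 and 854 reads (authors' deposited table, adjusted p = 0.937). Thus the region of the Trp53 start was accessible in both groups.

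Downstream of its intragenic peak, no peak of the table overlapped Trp53 from 69581722 to the gene's end, a stretch of 10.2 kb. Such a gap is common in this table. Of 680 other protein-coding genes between 10 and 13 kb long with a peak within 1 kb of the start, 400 (58.8%) had no peak from 2 kb downstream of the start to the gene's end. A deletion of Trp53 exons is the usual allele in KP tumours, and whether it is present in this line was not tested, since a peak table does not tell unopened from missing sequence.

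Mdm2 and Ccng1 act on p53 from downstream: Mdm2 is the ubiquitin ligase that removes it, and Ccng1, cyclin G1, is a target that recruits a phosphatase to Mdm2. Mdm2 (gene ID 17246, chromosome 10 from 117688875 to 117710758) had 6 peaks. The peak inside the gene, 0.308 kb from the authors' start site, held 204 reads under the Malat1 guide and 176 under the luciferase guide, a 1.16-fold difference (authors' deposited table, adjusted p = 0.924). It had the smallest p of the 6, and lies past the printed window, on the gene's side of the start. The strongest Mdm2 peak, 10.7 kb upstream, held 221 and 222 reads. The other 4 had differences between -0.30 and 0.20, and the authors annotated 2 of the 6 as lying in introns of another gene.

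Ccng1 (gene ID 12450, chromosome 11 from 40748552 to 40755309) had the largest differences of the set, all at weak peaks far from the gene. Its start-site peak, from 40755135 to 40755535, was among the strong ones, above 87.0% of peaks within 3 kb of a start, and held 681 and 593 reads, a 1.15-fold difference (authors' deposited table, adjusted p = 0.725). A peak 35.0 kb upstream held 176 and 201 reads. At 585 kb upstream a peak held 48.8 reads under the Malat1 guide and 18.9 under the luciferase guide, 2.59-fold apart (authors' deposited table, adjusted p = 0.262).

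A neighbouring Ccng1 peak at 586 kb held 51.2 and 24.0 reads, 2.13-fold apart (authors' deposited table, adjusted p = 0.287). The peak 302 kb upstream went the other way, with 26.1 reads against 51.6 (authors' deposited table, adjusted p = 0.410). These 3 peaks are tied to Ccng1 only by the authors' assignment and have unadjusted p of 0.0201, 0.0236 and 0.0463. The log2 folds of the authors' deposited table were 0.33, 0.30 and -0.20 there, far smaller than the ratios of means.

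Arrest and stress targets differed by at most 1.06-fold at their start-site peaks and at the Cdkn1a peak, and none of their 13 peaks was called. Cdkn1a (gene ID 12575, chromosome 17 from 29090979 to 29100722) encodes p21, the cyclin-dependent kinase inhibitor through which p53 halts the cycle. It had 1 peak, from 29095313 to 29095713, in an intron 4.34 kb from the upstream start and 1.54 kb from the downstream start. This was the strongest of the 39, with 799 reads under the Malat1 guide and 835 under the luciferase guide (authors' deposited table, adjusted p = 0.970).

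Sesn2, a stress-induced restraint on mTORC1 signalling, had a start-site peak with 704 and 661 reads and a peak 4.94 kb upstream with 555 and 522. Both were 1.06-fold higher under the Malat1 guide, and the adjusted p values were 0.948 and 0.968 in the authors' deposited table. The start-site peak exceeded 88.9% of peaks within 3 kb of a start site, the highest rank among the members. Trp53inp1, a nuclear protein of stress-induced death and autophagy, held 466 and 454 reads at its start site (authors' deposited table, adjusted p = 0.994). Its intronic peak 4.81 kb from the start held 59.1 and 80.8 reads, 1.37-fold lower under the Malat1 guide (authors' deposited table, adjusted p = 0.809). The other pair of Trp53inp1 peaks also had lower means under the Malat1 guide, by 0.05 and 0.29 on the log2 scale.

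Zmat3, an RNA-binding zinc finger protein, had the higher mean under the Malat1 guide in 6 of 6 peaks. At its start site it held 172 and 168 reads (authors' deposited table, adjusted p = 0.996), and the second peak within 3 kb, 1.87 kb upstream, held 48.5 and 44.1 (authors' deposited table, adjusted p = 0.988). The most different peak was weak and lay 49.6 kb from the start, with 34.3 against 18.0 reads, 1.91-fold apart (authors' deposited table, adjusted p = 0.585). A peak at 151 kb held 99.6 and 70.7 reads (authors' deposited table, adjusted p = 0.736).

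**Figure D3:**
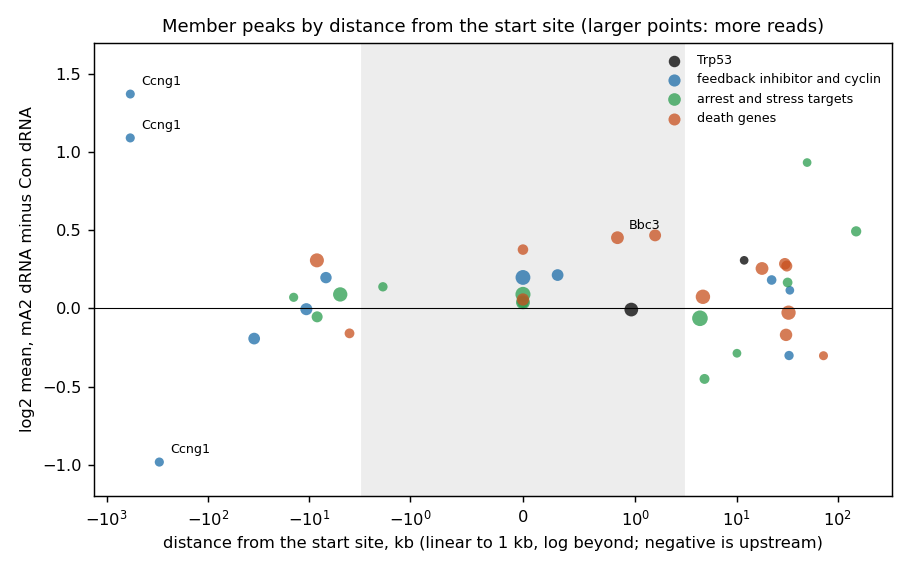
The x axis is the signed distance of each member peak from the start site of its assigned gene (linear to 1 kb and log beyond) and the y axis the log2 difference between groups. Colour gives the role, point size grows with reads, the shaded band is 3 kb to either side, and names mark unadjusted p under 0.05. Inside the band all 11 peaks lie between -0.01 and 0.47, and the extremes of -0.98 and 1.37 are Ccng1 peaks over 300 kb away.

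Of the death genes, Bbc3 had the smallest p values, at peaks next to its start, and none of the 13 peaks was called. Bbc3 (gene ID 170770, chromosome 7 from 16308398 to 16318334) encodes PUMA, a BH3-only protein that frees the apoptotic effectors, and had 8 peaks. The peak from 16309232 to 16309632, over the printed window, held 349 reads under the Malat1 guide and 255 under the luciferase guide, 1.37-fold apart. Its unadjusted p was 0.0456 and its adjusted p 0.408 in the authors' deposited table. The next peak, from 16309956 to 16310356, overlaps the other Bbc3 promoter windows and held 239 and 173 reads, 1.38-fold apart (authors' deposited table, adjusted p = 0.444).

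A further Bbc3 peak, 8.40 kb upstream, held 535 and 432 reads, 1.24-fold apart (authors' deposited table, adjusted p = 0.466). These 3 had the smallest p of the gene and none was called. The log2 folds of the authors' deposited table at these 3 peaks were 0.12, 0.11 and 0.08, where the differences of the means were 0.45, 0.47 and 0.31. The strongest Bbc3 peak, in an intron 4.64 kb from the start, held 567 and 538 reads (authors' deposited table, adjusted p = 0.977). Of the remaining 4, which the authors annotated in introns of another gene 17.8 to 32.5 kb away, 2 were higher under the Malat1 guide and 2 lower. The median difference over chromosome 7 was 0.15, above the 0.09 of all peaks, and the part of this in the Bbc3 values was not tested.

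Bax, the pore-forming effector of mitochondrial apoptosis (gene ID 12028, chromosome 7 from 45461695 to 45466903), had a start-site peak with 249 reads under the Malat1 guide and 239 under the luciferase guide. The authors' deposited table gave an adjusted p of 0.995. The other Bax peak, 4.0 kb upstream, held 60.1 and 67.1 reads, 1.12-fold lower under the Malat1 guide. Perp, a membrane protein of desmosomes and p53-dependent death, had a start-site peak of modest level, above 30.5% of peaks within 3 kb of a start, with 115 and 88.6 reads, 1.30-fold apart. The authors' deposited table gave an adjusted p of 0.909. The strongest Perp peak, 31.3 kb away, held 144 and 120 reads, and the peak 72.0 kb away held 31.3 and 38.6.

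Counting only start sites, 6 of the 10 genes had a peak directly over the assigned start, at Ccng1, Sesn2, Trp53inp1, Zmat3, Bax and Perp. All 6 had the higher mean under the Malat1 guide, by 0.04 to 0.38 on the log2 scale, and none was called. Within 3 kb lay 11 member peaks, 10 of them (90.9%) with the higher mean and a median difference of 0.14, against 62.5% and 0.07 over all 18006 such peaks. Bbc3 and Zmat3 each gave 2 of these 11 peaks, and the difference from all peaks was not tested. The Cdkn1a peak, with the lower mean under the Malat1 guide, is not among the 11. It lies 1.54 kb from the downstream start, but the authors measured from the upstream start. The 28 member peaks further away had a median difference of 0.08, with 57.1% higher, against 0.11 and 60.3% over all peaks at that distance. Members had a median of 3.5 peaks per gene, from 1 at Cdkn1a to 8 at Bbc3, where the median over all 18759 assigned genes was 3. Their median read level was 162, against 73.1 over all peaks.

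Other genes of the p53 network gave 5 calls among 246 peaks, 2 higher and 3 lower. The list held 52 regulators and targets, of which all but Trp73 had a peak. The calls made up 2.03% of its peaks, near the 2.73% of all peaks, and over all peaks 2.23% were called higher and 0.507% lower. With differences centred on the median of the chromosome the split was 1 higher and 3 lower, and over all peaks the 1801 higher and 410 lower calls became 1179 and 478. Centred on the median of all peaks, the list had 2 higher and 4 lower calls, and all peaks had 1307 and 590. The median difference of the list was 0.13 on the log2 scale. All 5 called peaks lay over 10 kb from the assigned start, and 0 of the 57 network peaks within 3 kb were called. Over all peaks within 3 kb the share called was 1.57%, and 1928 of all 2211 calls lay beyond that distance. The count of 0 among 57 therefore lies near the background and is not a result about these genes.

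The called network peak with the largest fold lay near Trp63, which encodes the p53 relative p63 of stratified epithelia. The peak, 98.7 kb upstream on chromosome 16 from 25584689 to 25585089, rose 3.25-fold from 38.7 to 126 reads (authors' deposited table, adjusted p = 0.00305). A peak 31.6 kb from the start of Polk, a translesion DNA polymerase, rose 2.08-fold from 141 to 294 reads (authors' deposited table, adjusted p = 0.00362). Centring on the median of its chromosome ended the Polk call (adjusted p = 0.0529). Centring on the median of all peaks, which was 0.09, kept it (adjusted p = 0.0124).

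The other called network peaks fell. Near Rrm2b, a ribonucleotide reductase subunit induced by p53, a peak 61.1 kb from the start fell 2.41-fold from 309 to 128 reads (authors' deposited table, adjusted p = 0.0437). A peak assigned to Apaf1, the scaffold of the apoptosome, lies 117 kb from its start in an intron of another gene, and fell 2.51-fold from 92.8 to 37.0 reads (authors' deposited table, adjusted p = 0.0351). A peak 14.8 kb from Plk2, a stress-responsive polo-like kinase, fell 2.60-fold from 91.2 to 35.1 reads (authors' deposited table, adjusted p = 0.0405). The log2 folds in the authors' deposited table were 1.34 for the Trp63 peak, 0.95 for Polk, -0.84 for Rrm2b, -0.91 for Apaf1 and -0.89 for Plk2, each nearer to 0 than the ratio of means.

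**Figure D4:**
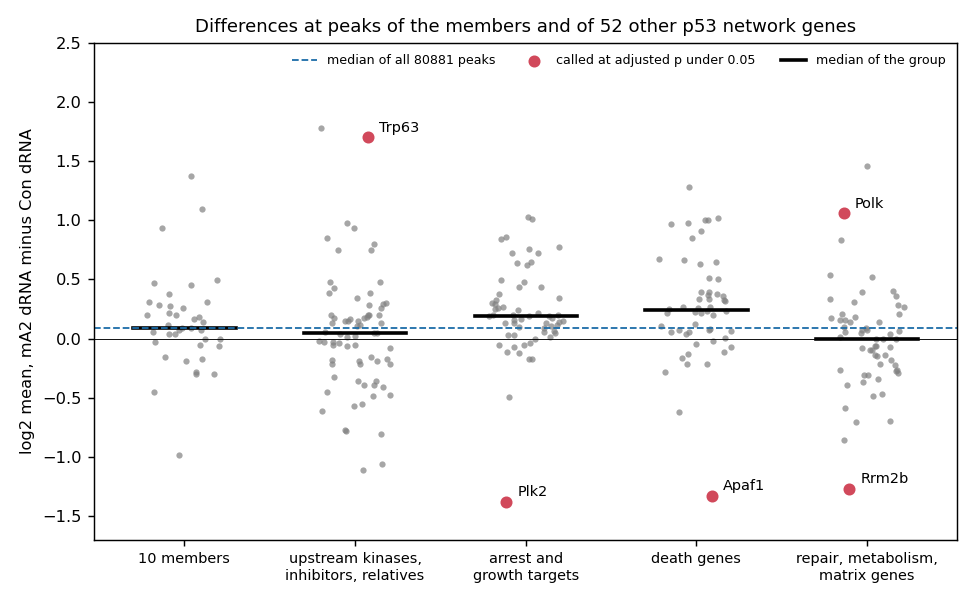
Each dot is a peak and the y axis is its log2 difference between groups, for the 10 members and for the 4 groups of other p53 network genes. Black bars are group medians, the dashed line is the median of all peaks (0.09), and red dots are the 5 called peaks. The medians of the 4 groups run from -0.00 for repair, metabolism and matrix genes to 0.24 for death genes.

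Among network peaks that were not called, Hipk2, Cd82, Sfn and Bid were among the genes with the next smallest p. A peak 6.79 kb from Hipk2, a kinase that phosphorylates p53, held 213 reads under the Malat1 guide and 123 under the luciferase guide (authors' deposited table, adjusted p = 0.0994). Other Hipk2 peaks went the other way. At 75.2 kb upstream a peak fell from 105 to 48.4 reads (authors' deposited table, adjusted p = 0.274). At 80.4 kb a peak fell from 286 to 205 reads (authors' deposited table, adjusted p = 0.364). Over all 12 Hipk2 peaks the median difference was -0.12, and 5 of them were higher with the Malat1 guide. A peak 4.01 kb from Cd82, a tetraspanin, held 858 and 598 reads (authors' deposited table, adjusted p = 0.102). A peak 23.6 kb from Sfn, the gene for the checkpoint protein 14-3-3 sigma, held 249.5 and 137 reads (authors' deposited table, adjusted p = 0.119). The Sfn peak within 3 kb of the start held 522 and 457 reads (authors' deposited table, adjusted p = 0.901). The authors annotated the Hipk2, Cd82 and Sfn peaks of smallest p in introns of other genes. A peak 10.9 kb upstream of Bid, which encodes a BH3-only protein, held 441 and 278 reads (authors' deposited table, adjusted p = 0.134).

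No promoter peak of the 4 network genes fixed for this purpose was called. The start-site peak of Gadd45a, a growth arrest and repair protein, held 1260.3 and 1237 reads (authors' deposited table, adjusted p = 0.991). Cdkn2a, the locus of p16 and of the Mdm2 inhibitor Arf, held 489 and 436 reads at its start site (authors' deposited table, adjusted p = 0.901). Pmaip1, which encodes the BH3-only protein NOXA, held 42.3 and 40.1 reads there (authors' deposited table, adjusted p = 0.996). Mdm4, the partner of Mdm2, had no assigned peak within 3 kb of its start, and its peak 3.36 kb upstream held 379 and 474 reads.

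By role, 49 of the 60 peaks of arrest and growth targets (81.7%) and 43 of the 54 peaks of death genes (79.6%) had the higher mean under the Malat1 guide, with median differences of 0.19 and 0.24. The 72 peaks of upstream kinases, inhibitors and relatives had 54.2% higher and a median of 0.04, and the 60 peaks of repair, metabolism and matrix genes 50.0% and -0.00. All peaks had 60.8% and 0.09. These are descriptions, since peaks of a gene share their locus and no difference between the groups of genes was tested.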

How the data were processed

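Accessibility was measured by ATAC-seq, with a commercial kit per the labels' protocols. The build mm10 and, without versions or roles, Bowtie2, MACS2, DiffBind, ChIPseeker, FastQC, Picard and deepTools are named per the submitters' processing notes. How duplicates and insertion offsets were handled, how libraries were normalized, how peaks were pooled, which test was used and how the deposited fold was derived are not given in the sources consulted. Per the file headers, the authors gave for every peak the log2 mean of normalized reads per group, a log2 fold, a p-value and an adjusted p-value, and a distance in bp from the start of the assigned gene. Of the peaks, 99.8% were 401 bp wide. The header calls the groups dmA12 and dLuc, and dmA12 was taken as mA2 dRNA because the series has a single contrast. A further 4 columns of library values match no sample label and were not used, so depth per library is not reported, and the edgeR and DESeq2 fits planned for library counts were not run.

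Members were all peaks whose symbol was one of the 10 genes. The members and lists were chosen with earlier results of these data known. Each member's peaks within 3 kb, its smallest p and its strongest peak are named, and of the network list every called peak, the next 5 genes by p, of which 1 is not reported here, and 4 promoters. Calls used the deposited adjusted p-value under 0.05. For centred differences the standard error was taken from the difference and p of each peak, or, for differences under 0.2 in size, from the median of peaks in the same of 50 read-level bins, and p was adjusted again by Benjamini-Hochberg over all peaks; this step was tested on simulated data. Python 3.11.15, pandas 2.3.3 and SciPy 1.17.1 were used. Promoter windows and gene bounds are from RefSeq (GRCm38.p6), where all 10 symbols matched.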

Additional observations from a re-analysis of the deposited data

How the results depend on the processing

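The count of 0 called member peaks was also 0 at thresholds of 0.01 and 0.1 on the adjusted p, with both centrings, with a minimum of 20 mean reads, within 3 kb of the start site, and, in an alternative chosen after seeing the data, over the 31 peaks within 10 kb of a member gene whatever their assignment. Its smallest adjusted p ran from 0.256 to 0.408 over the alternatives that kept the adjusted p. At an unadjusted p under 0.05 the count was 4. The median difference over member peaks (0.09) was 0.14 within 3 kb, -0.0014 when centred on the median of all peaks, 0.0796 when centred by chromosome and 0.10 with a mean per gene first. The count of 5 called network peaks was 2 at an adjusted p under 0.01, 0 within 3 kb and 29 at an unadjusted p under 0.05, and between 4 and 7 under the other alternatives; the cause was not tested. No paired analysis was possible because the columns of single libraries carry no sample name, and for the same reason leaving out a library and other library scalings were not run. With 2 libraries per group and no usable library values, small changes could not be resolved, above all at peaks under 64 reads.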

Other observations

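Named after their values were seen, the peaks of Pmaip1, Bid, Eda2r and Gadd45a leaned the same way without a call. Means were higher under the Malat1 guide in 5 of 5 Pmaip1 peaks, 7 of 8 Bid peaks, 7 of 7 Eda2r peaks (Eda2r is a death receptor of the TNF receptor family) and 8 of 9 Gadd45a peaks, with median differences of 0.98, 0.50, 0.51 and 0.44 on the log2 scale. In the authors' deposited table each of these 4 genes had 2 peaks with p under 0.05 before adjustment and 0 called peaks.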
